A study of Mus musculus with 2 samples.

Results

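The matrix metalloproteinase (Mmp), Adam, Adamts and Timp genes were compared between 2 mouse embryonic stem cell cultures, 1 labelled Mof null and 1 labelled wild type for Mof. The members were taken by symbol alone, as all probe sets annotated to exactly 1 gene named Mmp, Adam, Adamts or Timp followed by a number and at most 1 letter. That rule gave 116 probe sets of 65 genes, out of 18193 genes measured: 18 Mmp, 28 Adam, 15 Adamts and 4 Timp genes. The rule itself uses no measured value. Probe sets that name a member together with another gene were left out, 5 in all, of which 4 name Adam1a with Mapkapk5 and 1 names Adam6a with Adam6b.

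Mof (gene symbol Kat8) is an acetyltransferase of histone H4, and the samples carry the genotypes MOF-/- and MOF +/+. Both lines are of strain C57BL/6, were derived from embryos of 3.5 days post coitum, and were used at passage 15 to 18. They were kept with LIF on mouse embryonic fibroblast feeders and then passed 2 times without feeders before RNA was taken. Each genotype was 1 culture on 1 Affymetrix array, so the differences have no replicate error and were not tested. Values are RMA values on a log2 scale, a difference is the array labelled Mof null minus the array labelled wild type, and a gene takes its brightest probe set. In brackets after a value, Mof null and wild type name the array by its label. A gene was counted as lower or higher when that difference reached 1 log2 unit, which is 2-fold. A gene was called above the filter when the mean of both arrays was at least 6.02, the median of all values.

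Mmps are secreted or membrane-bound zinc proteases that cut collagens and other matrix proteins. Adams are membrane proteins, many of which release the outer parts of growth factors, cytokines and receptors, and others of which act in sperm. Adamts proteases are secreted and cut proteoglycans, procollagens and other matrix proteins, and the Timps are secreted proteins that bind and block metalloproteinases. Fibroblasts are a rich source of several of these enzymes and of Timps, and macrophages make Mmp12, so both cell types were followed beside the members by their marker genes.

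The probe set of Kat8 (Entrez gene 67773) stood at 8.37 on the array labelled Mof null and 8.06 on the array labelled wild type, a difference of 0.31 that became -0.21 relative to the median of the stem cell markers. Where it lies relative to the deletion was not stated, so it does not check the labels, and every direction rests on them. Both arrays carried the 14 embryonic stem cell markers, at 10.1 to 14.2 on the array labelled Mof null and 9.96 to 13.8 on the array labelled wild type, with a median difference of 0.52. Of 26 fibroblast markers, 25 passed 2-fold on the lower side, beside 8.25% of all genes and 11.5% of those above the filter. Their median difference was -2.03, with a range of -2.92 to -0.90. Their summed linear values were 47539 on the array labelled Mof null and 160807 on the array labelled wild type. Of 18 macrophage markers 16 passed 2-fold on the lower side, beside the same 8.25% of all genes. Their median was -2.09, with sums of 6152 on the array labelled Mof null and 22358 on the array labelled wild type. All 26 fibroblast and 16 of the 18 macrophage markers were above the filter, Ptprc and Lcp1 through the array labelled wild type alone. The part of these cells in the results below was not tested, and the marker lists were written with earlier results of these data known. In such bulk RNA, fewer cells of a type and less RNA per cell cannot be told apart. The only spread that can be measured is that between probe sets of the same gene, a pooled SD of 0.32 over 5079 genes and of 0.28 over the 15 members with several probe sets above the filter.

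Members past 2-fold all lay on the lower side in the culture labelled Mof null. Of all 65 members, 20 were lower by 2-fold or more and none was higher by as much, a share of 30.8% lower, against a background of 8.25% lower and 3.5% higher among all 18193 genes. The median difference was -0.13 over all members and 0.11 over all genes. RMA compresses differences of dim probe sets, so the members were also counted above the filter. Of the 33 members there, 19 were lower by 2-fold or more and none was higher, where the background was 11.5% lower and 4.88% higher among 11612 genes. Adamts6 and Mmp13 passed this filter through the array labelled wild type alone. The other 32 members lay below the filter, and 31 of them differed by less than 2-fold. The remaining one was Mmp19, at 4.59 on the array labelled Mof null and 7.15 on the array labelled wild type, with a second probe set at 5.0 (Mof null) against 6.62 (wild type). The members just inside the 2-fold rule were Mmp9 at -1.22 and Timp1 at -1.38, and those just outside it were Adamts10 at -0.78 and Adamts9 at 0.97. Of the 19 lower members 11 reached 4-fold, where the background was 3.1% of the genes above the filter.

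**Figure D1:**
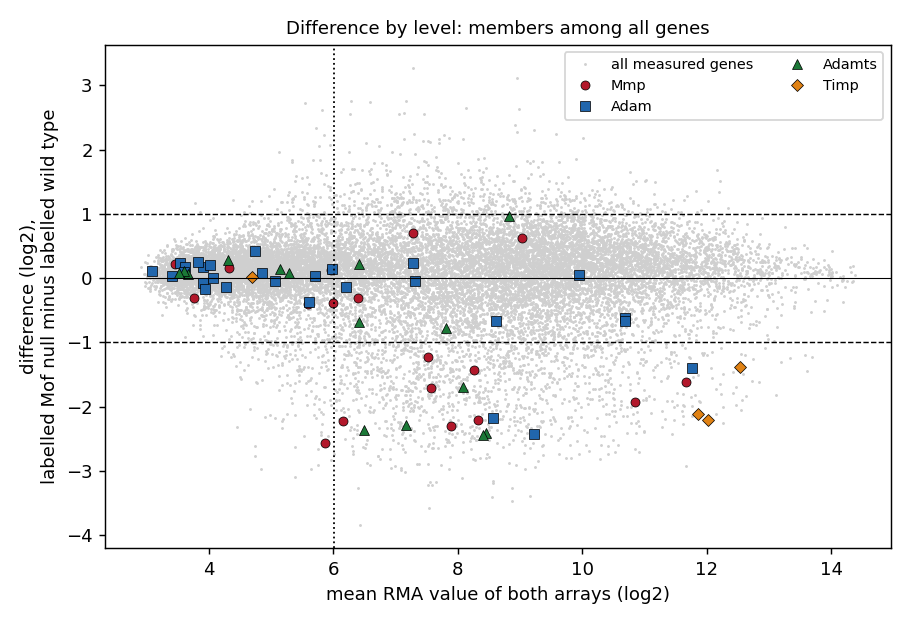
The difference of each gene (log2, array labelled Mof null minus array labelled wild type) is plotted against its mean RMA value on both arrays (log2), with all 18193 genes in grey and the 65 members coloured by family. Dashed lines mark 2-fold and the dotted line the filter at 6.02. Members left of the filter gather near 0, except Mmp19 at -2.56, and 19 of the 33 right of it lie below the lower dashed line.

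The inhibitors had the lowest median of the 4 families, and 3 of the 4 were lower by 2-fold or more, beside 8.25% of all genes. Timp3 (Entrez gene 21859), which binds to the matrix and also blocks several Adams and Adamts proteases, had values of 10.9 on the array labelled Mof null and 13.1 on the array labelled wild type, 4.61-fold lower. Its 4 probe sets all lay between -2.42 and -2.20. Timp2 (Entrez gene 21858), which blocks Mmp2 and also takes part in its activation, was at 10.8 on the array labelled Mof null and 12.9 on the array labelled wild type, 4.34-fold lower. Of its 6 probe sets, 5 were above the filter and lay between -2.51 and -2.12, while the sixth was near the floor at 4.05 (Mof null) against 4.32 (wild type). Timp1 (Entrez gene 21857), a broad inhibitor of secreted Mmps, was at 11.8 (Mof null) against 13.2 (wild type), lower by 2.60-fold on its single probe set. Timp4 (Entrez gene 110595) lay near the floor on both probe sets, with 4.70 (Mof null) against 4.68 (wild type) on the brighter one, so no difference could be read for it. The median difference of the 3 inhibitors above the filter was -2.12, and that of all 4 was -1.75. The 9 probe sets of Timp2 and Timp3 above the filter thus lay between -2.51 and -2.12. The marker medians above the filter were -2.03 for fibroblast and -2.14 for macrophage genes.

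Of the 18 Mmp genes 9 were lower by 2-fold or more, 8 of them among the 11 above the filter, beside 8.25% of all genes and 11.5% of those above the filter. The gelatinases, which cut denatured collagen and basement membrane collagen, were both lower. Mmp2 (Entrez gene 17390) had values of 9.88 on the array labelled Mof null and 11.8 on the array labelled wild type, 3.80-fold lower, and its second probe set differed by -1.79. Mmp9 (Entrez gene 17395) was at 6.91 (Mof null) against 8.13 (wild type), 2.34-fold lower, with both probe sets at -1.24 and -1.22. Mmp14 (Entrez gene 17387), the membrane-type protease that activates pro-Mmp2 at the cell surface, was at 10.9 on the array labelled Mof null and 12.5 on the array labelled wild type. That is 3.08-fold lower, and its 3 probe sets ran from -2.04 to -1.62. The protease, its Mmp2 substrate and the Timp2 that links them were thus lower together on every probe set above the filter.

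The stromelysins Mmp3 and Mmp10, the macrophage elastase Mmp12 and the collagenase Mmp13 were lower, with differences of -2.31 to -1.71. Mmp3 (Entrez gene 17392), which cuts proteoglycans and fibronectin and activates other Mmps, had 7.23 on the array labelled Mof null and 9.43 on the array labelled wild type, 4.59-fold lower. Mmp10 (Entrez gene 17384), the related stromelysin, was at 6.71 (Mof null) against 8.42 (wild type), 3.27-fold lower. Mmp12 (Entrez gene 17381), the elastase of macrophages, was at 6.74 (Mof null) against 9.04 (wild type), 4.95-fold lower. Mmp13 (Entrez gene 17386), a collagenase of fibroblasts and cartilage, was at 5.04 on the array labelled Mof null, below the median of all values, and at 7.26 on the array labelled wild type, which gives 4.66-fold. Each of these 4 genes was read by 1 probe set. Mmp23, a membrane-anchored member without the usual hemopexin domain, was at 7.54 on the array labelled Mof null and 8.97 on the array labelled wild type, 2.70-fold lower, with its second probe set at -1.72.

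A pair of Mmp genes above the filter had positive differences. Mmp11 (Entrez gene 17385), a stromelysin that is activated by furin inside the cell, was at 9.35 on the array labelled Mof null and 8.72 on the array labelled wild type, 1.55-fold higher. Mmp17 (Entrez gene 23948), a membrane-type Mmp held by a lipid anchor, was at 7.62 (Mof null) against 6.92 (wild type), 1.62-fold higher. Both are single probe set values under the 2-fold rule, and relative to the median of the stem cell markers they were 0.11 and 0.17. Mmp24, a membrane-type Mmp known from neurons, differed by -0.31, at 6.24 (Mof null) against 6.55 (wild type). The membrane-type genes were therefore spread over both sides of 0, from -1.62 for Mmp14 to 0.69 for Mmp17. Mmp16, another of them, lay just below the filter at 5.81 on the array labelled Mof null and 6.19 on the array labelled wild type. A dimmer probe set of it, at 4.52 (Mof null) against 5.70 (wild type), differed by -1.19.

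**Figure D2:**
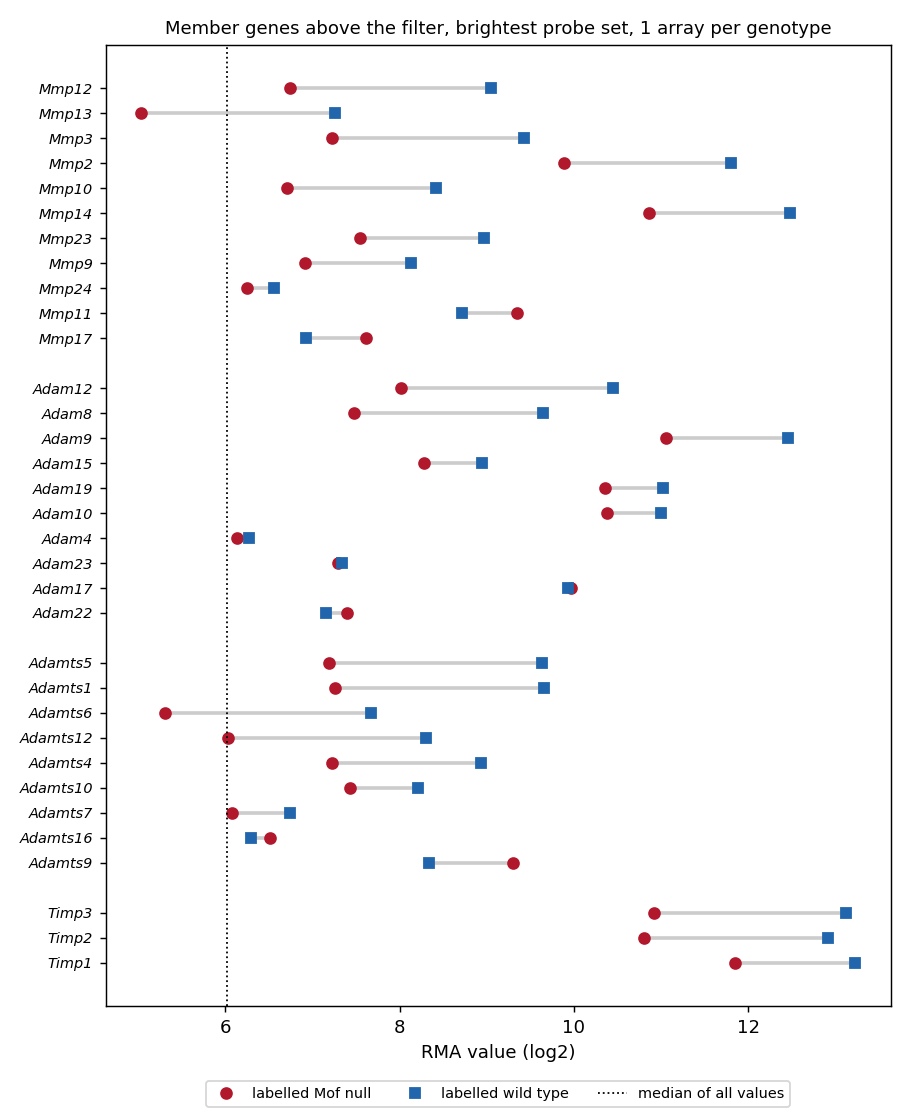
RMA values (log2, horizontal axis) of the 33 members above the filter are shown for the array labelled Mof null (red circles) and the array labelled wild type (blue squares), 1 array each, grouped by family and ordered by difference. The dotted line is the median of all values, 6.02. In 27 of the 33 genes the red circle lies left of the blue square.

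The Mmp genes also differ by their place in the genome. By the RefSeq genes of GRCm38.p6, 10 Mmp genes follow each other on chromosome 9 with no other protein-coding gene between them, in the order Mmp13, Mmp12, Mmp1b, Mmp3, Mmp1a, Mmp10, Mmp8, Mmp27, Mmp20 and Mmp7. Mmp27 is not analysed here. Of the 9 measured genes, Mmp13, Mmp12, Mmp3 and Mmp10 had differences of -2.31 to -1.71, while the genes between and beside them lay below the filter and differed by -0.40 to 0.21. Mmp1a and Mmp1b, close copies of each other whose probes may share signal, were at 3.56 and 3.60, in the order named, on the array labelled Mof null and at 3.34 and 3.91 on the array labelled wild type. Mmp8, the collagenase of neutrophils, was at 5.39 (Mof null) against 5.78 (wild type). Mmp20, the protease of tooth enamel, was at 4.41 (Mof null) against 4.24 (wild type), and Mmp7, the matrilysin of epithelia, at 6.03 (Mof null) against 5.91 (wild type). The 4 lower genes thus lie among the first 6 of the run, with Mmp1b and Mmp1a between them. On chromosome 16 the neighbours Adamts1 and Adamts5 were lower together, whereas Adam9 on chromosome 8 was lower beside Adam18, Adam3, Adam5 and Adam32, which were near the floor at 3.70 to 4.94 on the array labelled Mof null.

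**Figure D3:**
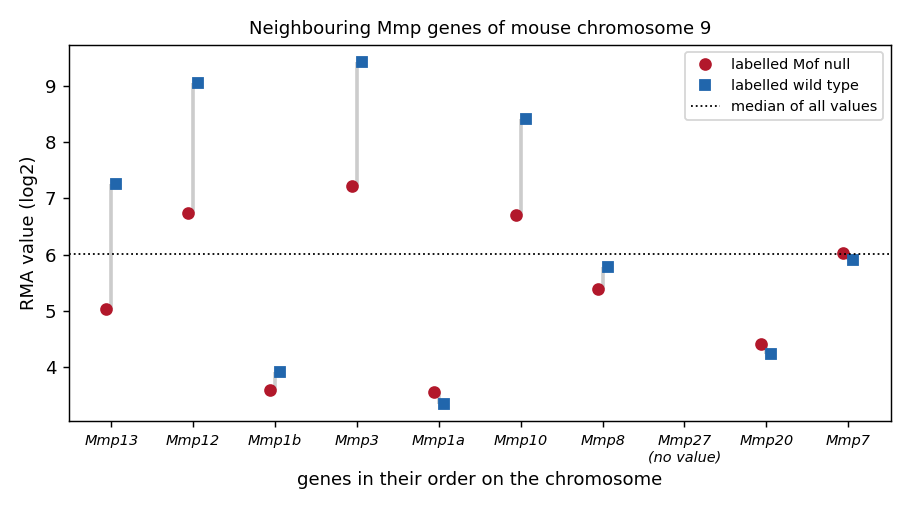
RMA values (log2, vertical axis) of the neighbouring Mmp genes of mouse chromosome 9 are shown in their order on the chromosome, as red circles for the array labelled Mof null and blue squares for the array labelled wild type, 1 array each. Mmp13, Mmp12, Mmp3 and Mmp10 have circles well below their squares, with differences of -2.31 to -1.71, and the other 5 measured genes, at -0.40 to 0.21, lie near or below the dotted median of 6.02.

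The promoters of this run are shown because its lower genes and most of its other genes share a known element. AP-1, the dimer of Fos and Jun proteins, binds TGANTCA and is a textbook regulator of several Mmp genes. That motif and the TATA element TATAAA were searched on both strands in the 250 bases before each RefSeq start. The letters below are the last 120 bases before the start, written along the gene, from RefSeq (GRCm38.p6), with whole matches to either motif in capitals. The first 4 genes were lower by 2-fold or more and the last 4 were not. The genes Mmp12 and Mmp7 have 2 annotated starts each, of which the one with a match is given.
Mmp13 (chr9:7272394-7272513, plus strand): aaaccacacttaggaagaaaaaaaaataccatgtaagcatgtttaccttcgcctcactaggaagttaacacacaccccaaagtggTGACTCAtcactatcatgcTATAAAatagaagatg
Mmp12 (chr9:7347254-7347373, plus strand): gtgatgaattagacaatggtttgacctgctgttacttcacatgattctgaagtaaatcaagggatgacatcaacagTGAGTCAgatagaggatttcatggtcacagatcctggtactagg
Mmp3 (chr9:7445702-7445821, plus strand): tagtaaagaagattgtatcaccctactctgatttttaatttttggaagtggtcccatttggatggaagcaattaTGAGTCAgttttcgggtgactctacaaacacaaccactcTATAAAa
Mmp10 (chr9:7502222-7502341, plus strand): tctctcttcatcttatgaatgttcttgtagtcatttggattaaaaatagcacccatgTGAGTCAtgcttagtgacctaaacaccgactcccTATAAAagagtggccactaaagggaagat
Mmp1b (chr9:7388027-7388146, minus strand): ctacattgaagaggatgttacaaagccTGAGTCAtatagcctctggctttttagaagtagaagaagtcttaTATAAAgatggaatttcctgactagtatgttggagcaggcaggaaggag
Mmp1a (chr9:7464021-7464140, plus strand): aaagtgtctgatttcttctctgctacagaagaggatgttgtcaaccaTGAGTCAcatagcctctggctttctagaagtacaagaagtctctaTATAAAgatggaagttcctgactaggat
Mmp20 (chr9:7628111-7628230, plus strand): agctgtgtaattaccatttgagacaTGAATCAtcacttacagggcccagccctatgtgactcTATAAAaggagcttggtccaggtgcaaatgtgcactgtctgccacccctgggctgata
Mmp7 (chr9:7691970-7692089, plus strand): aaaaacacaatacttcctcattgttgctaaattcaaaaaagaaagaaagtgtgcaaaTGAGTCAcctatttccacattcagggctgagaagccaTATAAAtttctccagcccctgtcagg

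TGANTCA was found before 8 of the 9 measured genes of the run, the exception being Mmp8, and TATAAA before 7 of them. Over all genes with a window, 7.82% hold TGANTCA and 14.3% hold TATAAA. The match began 35 bases before the start in Mmp13, 46 in Mmp3, 44 in Mmp12 and 63 in both Mmp10 and Mmp7. All 4 lower genes of the run hold TGANTCA, and so do 4 of the 5 that were near or below the filter. Outside the run, 2 of 28 members with a window hold it, Adam19 and Adam25, which is 7.14%. Of the 65 members 37 had a promoter window, and a match is a run of letters and does not show binding.

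Of the 15 Adamts genes 5 were lower by 2-fold or more, all among the 9 above the filter. The background was 8.25% of all genes and 11.5% of those above the filter. Of the 5 lower genes, 3 belong to the proteases that cut aggrecan and versican. Adamts5 (Entrez gene 23794), the main aggrecanase of mouse cartilage, was at 7.19 on the array labelled Mof null and 9.63 on the array labelled wild type, 5.45-fold lower. That was the most negative difference among the members above the filter, and its 3 probe sets there ran from -2.50 to -2.01. Adamts1 (Entrez gene 11504), which cuts versican and acts in ovulation, was at 7.25 (Mof null) against 9.66 (wild type), 5.30-fold lower on its single probe set. Adamts4 (Entrez gene 240913), the other well known aggrecanase, was at 7.23 on the array labelled Mof null and 8.93 on the array labelled wild type, 3.25-fold lower, with a second probe set at -2.31. Adamts12 (Entrez gene 239337), which cuts the cartilage protein Comp, was at 6.03 (Mof null) against 8.30 (wild type), 4.85-fold lower, while a second probe set read 3.35 on both arrays and shows only the floor. Adamts6 (Entrez gene 108154) was at 5.31 on the array labelled Mof null and 7.67 on the array labelled wild type, 5.16-fold lower, and its dimmer probe set differed by -0.66. The 5 lower Adamts genes thus include 4 with differences of 4-fold or more, against 360 such genes among the 11612 above the filter.

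Adamts9 (Entrez gene 101401) stood on the other side. This protease, which cuts versican and is needed in early mouse development, was at 9.30 on the array labelled Mof null and 8.33 on the array labelled wild type, 1.96-fold higher. Its other probe sets were also positive, at 8.44 (Mof null) against 8.03 (wild type) and at 6.29 (Mof null) against 6.06 (wild type). It was the highest member, and its difference lay between 0.45, relative to the median of the stem cell markers, and 1.01 after quantile normalization of the table. Adamts16 differed by 0.22, at 6.52 (Mof null) against 6.29 (wild type), and by -0.30 relative to the median of the stem cell markers. Adamts7, the other Comp-cleaving protease, and Adamts10, which acts on microfibrils, lay below 0 at -0.68 and -0.78. The 6 Adamts genes below the filter, Adamts3, Adamts8, Adamts15, Adamts18, Adamts19 and Adamts20, differed by 0.064 to 0.28.

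The Adam genes split into a few lower sheddases, several that differed little, and a large group near the floor. Adam12 (Entrez gene 11489), a protease of mesenchymal cells and forming muscle, was at 8.01 on the array labelled Mof null and 10.4 on the array labelled wild type, 5.39-fold lower, and its second probe set differed by -3.03. Adam8 (Entrez gene 11501), known from white blood cells and bone-resorbing cells, was at 7.48 (Mof null) against 9.65 (wild type), 4.51-fold lower on 1 probe set. Adam9 (Entrez gene 11502), a widely expressed sheddase, was at 11.1 on the array labelled Mof null and 12.5 on the array labelled wild type, 2.64-fold lower. These 3 were the only Adams past 2-fold, 3 of 28 or 10.7%, a share near the 8.25% background of lower genes. Above the filter they were 3 of 10 Adams, or 30.0%, where the background was 11.5%. Adam15 and the neuregulin sheddase Adam19 lay at -0.67 and -0.66, with Adam15 probe sets from -0.67 to -0.09.

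The best known sheddases of the family differed less. Adam17 (Entrez gene 11491), which releases Tnf and ligands of the Egf receptor, was at 9.97 on the array labelled Mof null and 9.93 on the array labelled wild type, and its 3 probe sets lay between 0.041 and 0.23, although centring on the median gene, the lowess correction and the stem cell marker scaling turn the first of these negative. Adam10 (Entrez gene 11487), which makes the first cut in activated Notch receptors, was at 10.4 (Mof null) against 11.0 (wild type), 1.53-fold lower on its brightest probe set. Its other probe sets above the filter differed by 0.03 and 0.41, so this gene was the only one of 15 with probe sets on both sides of 0, and their mean over all 4 was 0.0003. Adam22 and Adam23, which lack protease activity and bind the secreted protein Lgi1 in the brain, differed by 0.24 and -0.047, signs that turn for Adam22 relative to the stem cell markers and for Adam23 after quantile normalization. A second probe set of Adam23 differed by -0.77. Adam11, Adam28 and Adam33 lay below the filter and differed by 0.15, 0.08 and -0.38, with a dimmer probe set of Adam28 at 0.63. Of the other 16 Adams, most of them known from testis and sperm, 15 lay below the filter and none reached 2-fold. The differences of these 16 ran from -0.17 to 0.42, with Adam3 as the highest. Adam4 was the only one of them above the filter, at 6.14 (Mof null) against 6.28 (wild type).

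Genes that control or resemble the members were taken from a list of 39, of which 38 were measured. Of these, 11 passed 2-fold on the lower side and 2 on the higher side, with the same background of 8.25% and 3.5%. Above the filter it was 10 lower and 1 higher of 26, with a median of -0.63. Of the lower genes, Plau, Tll1 and Adamtsl1 passed the filter through the array labelled wild type alone. Plau, the urokinase gene whose plasmin product activates Mmps, was at 4.76 on the array labelled Mof null and 8.02 on the array labelled wild type, 9.56-fold lower, while a second probe set differed by -1.72 and the mean of its probe sets was -2.49. Tll1, a protease that like Bmp1 processes procollagen, was at 5.81 (Mof null) against 8.41 (wild type), 6.07-fold lower. Ecm1, a secreted matrix protein, was at 9.44 (Mof null) against 11.6 (wild type), 4.43-fold lower. A2m, a broad protease inhibitor of plasma, was the only gene of the list above the filter past 2-fold on the higher side. It was at 7.76 on the array labelled Mof null and 5.71 on the array labelled wild type, 4.15-fold higher. Its mean passed the filter through the array labelled Mof null alone.

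Other controllers differed less or in both directions. Reck, a membrane-anchored Mmp inhibitor, was at 8.91 (Mof null) against 9.08 (wild type), a difference of -0.17, unlike the 3 lower Timps. Furin, which removes the propeptide of Mmp11, membrane-type Mmps and Adams, was at 8.32 on the array labelled Mof null and 9.38 on the array labelled wild type, 2.09-fold lower. The inactive rhomboid proteins that carry Adam17 to the cell surface went apart, with Rhbdf1 at 8.03 (Mof null) against 9.61 (wild type), 2.98-fold lower, and Rhbdf2 at 8.91 (Mof null) against 8.23 (wild type), 1.60-fold higher. The tetraspanins that partner Adam10 also lay on both sides, with differences above the filter of 0.85 for Tspan15, 0.73 for Tspan14, -0.54 for Tspan5 and -0.99 for Tspan17.

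Of 39 measured substrates of the members, 13 passed 2-fold on the lower side and 2 on the higher side, beside 8.25% and 3.5% of all genes. Above the filter the counts were 13 and 1 of 27, beside 11.5% and 4.88%, with a median of -0.89. Col1a1, Col1a2 and Col3a1 belong to the fibroblast markers as well. Ereg, an Egf receptor ligand released by Adam17, was at 6.98 on the array labelled Mof null and 10.1 on the array labelled wild type, 8.94-fold lower. The collagen gene Col1a1 was at 10.2 (Mof null) against 13.1 (wild type), 7.57-fold lower, with a second probe set at -1.77. Cdh2 and Kitl, membrane proteins shed by Adams, were lower by 5.33-fold and 4.60-fold. The probe sets of Kitl above the filter ran from -2.20 to -1.15, and the mean of all its probe sets was -1.53. The proteoglycan substrates of the Adamts proteases went apart. Vcan was at 9.33 on the array labelled Mof null and 11.3 on the array labelled wild type, 3.98-fold lower. Of its 8 probe sets, the 3 above the filter ran from -2.08 to -1.51, and the mean of all was -0.81. Acan was at 7.14 (Mof null) against 5.76 (wild type), 2.61-fold higher, and passed the filter through the array labelled Mof null alone. Notch1 differed by -0.040 and Cdh1, the epithelial cadherin shed by Adam10, by 0.87.

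The 19 lower members above the filter, picked by the 2-fold rule, had differences of -2.45 to -1.22. The rule itself sets the upper end of that range. The other 14 members above the filter ran from -0.78 to 0.97. On their brightest probe sets, fibroblast markers ranged from -2.92 to -0.90 and macrophage markers from -3.02 to -0.13. Over all probe sets above the filter, fibroblast markers ran from -3.16 for Prrx1 to 0.06 for Igfbp7. In summed linear values, the 65 members stood at 21079 on the array labelled Mof null and 56811 on the array labelled wild type, beside 47539 (Mof null) and 160807 (wild type) for the fibroblast markers. The 12 extraembryonic endoderm markers above the filter had a median of 0.78, with 6 past 2-fold on the higher side and none on the lower. The background above the filter was 4.88% higher and 11.5% lower. Adamts9 at 0.97, Mmp17 at 0.69 and Mmp11 at 0.63 were all under 2-fold. Endoderm markers ranged from -0.90 for Pdgfra, which fibroblasts also express, to 3.11 for Amn. The part of any of these cell types in the members' differences was not tested.

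**Figure D4:**
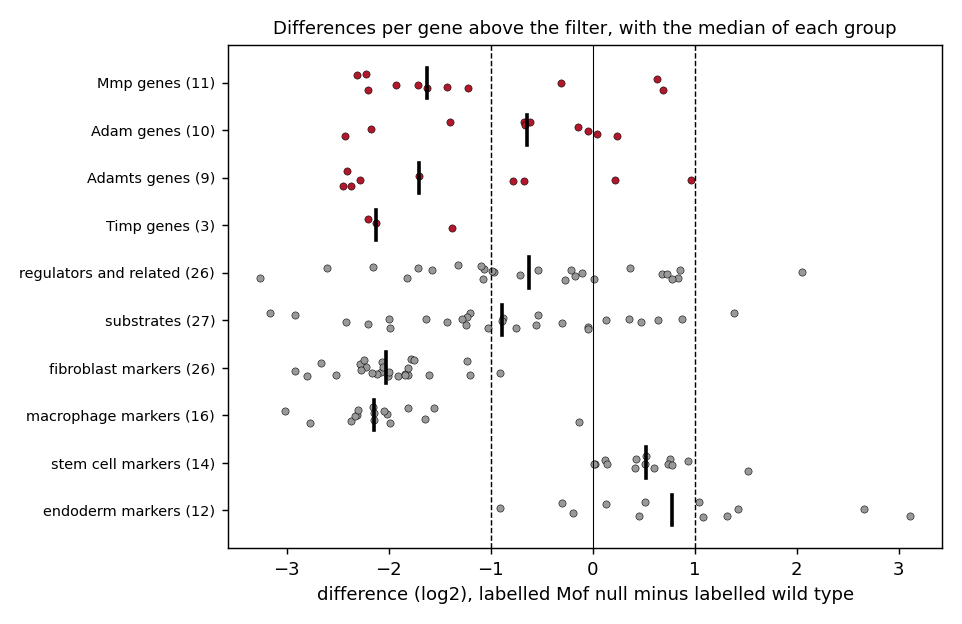
Each point is the difference of 1 gene above the filter (log2, array labelled Mof null minus array labelled wild type), with members in red, other lists in grey, the number of genes in brackets and a black bar at the median. Vertical positions within a row are spread for legibility, and dashed lines mark 2-fold. The medians are -1.62 for Mmp, -0.64 for Adam, -1.70 for Adamts and -2.12 for Timp genes. Those of the markers are -2.03 for fibroblast, -2.14 for macrophage, 0.52 for stem cell and 0.78 for endoderm genes.

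The family medians depend on the genes at the floor. Over all measured members, without the filter, they were -0.81 for Mmp, 0.018 for Adam, 0.064 for Adamts and -1.75 for Timp genes, so the sign of the Adam and Adamts medians turns when genes near the floor are counted. Of the 20 lower genes 19 are above the filter, although Adamts6 and Mmp13 pass it through the array labelled wild type alone.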

How the data were processed

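Total RNA of 2 cultures was hybridised to 1 Affymetrix array each. The authors deposited 1 log2 value per array for 45101 probe sets, computed by RMA with the affy package under R 2.10.0, per the submitters' processing notes. RMA quantile-normalizes arrays, so a shift of most transcripts cannot be seen, and differences of very dim or very bright probe sets come out too small. That the scale is log2 follows from the range of the values, 2.77 to 14.7. The number of arrays, 1 per genotype, limits the precision, and nothing says more than 1 culture was used.

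The platform annotation named 34958 probe sets with 1 gene, 932 with several, and left 9211 unnamed here. The 34945 with 1 symbol and 1 Entrez ID that are not controls were used, and all 65 members kept their symbol in RefSeq GRCm38.p6. Members matching the rule in RefSeq without a probe set of their own, 15 genes, are not analysed here. Mean level, 2-fold counts and medians were computed with no test and checked on simulated data, using Python 3.11.15, numpy 2.4.6, pandas 2.3.3, statsmodels 0.14.6 and matplotlib 3.10.9.

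Members, lists and rules were chosen with earlier results of these data known. The named genes are the members above the filter past 2-fold, Timp1 to Timp4, Mmp2, Mmp9, Mmp14, Adam10, Adam17, Adamts1, Adamts5, Adamts9, Kat8 and, of each list, at most 4 genes with the largest absolute difference. All other named genes were chosen after their values were seen. The marker lists hold fibroblast, macrophage, embryonic stem cell and extraembryonic endoderm genes. Some genes of the lists are not analysed here. Alternatives were the mean of all probe sets, leaving out probe sets with suffix _s_at, _x_at or _a_at, other filters (none, percentile 75, the higher value), centring, lowess (span 0.3), quantile normalization, thresholds of 1.5-fold and 4-fold, leaving out the most changed gene and, added after seeing the data, differences relative to the stem cell markers.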

Additional observations from a re-analysis of the deposited data

How the results depend on the processing

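No paired analysis was possible because there is 1 array per genotype, and leaving out an array was not possible for the same reason. The count of 19 lower members was 9 with the filter at percentile 75, which leaves 15 members and a background of 9.54% lower. At 4-fold the count was 11, beside 3.1% of all genes above the filter. Under the other alternatives the count stayed within 1.5 times. No member was 2-fold higher, except Adamts9 after quantile normalization (1 gene), where 5.5% of all genes above the filter were higher. At 1.5-fold 3 members were higher, beside 17.0% of all genes above the filter. Without the filter the medians were -0.13 for members, -0.81 for Mmp, 0.018 for Adam, 0.064 for Adamts and -1.75 for Timp genes, -0.14 for regulators and -0.53 for substrates, because genes at the floor enter. Relative to the stem cell marker median, a scaling that lowers every gene by the same 0.52 (centring lowers them by 0.10), the medians above the filter were -1.92, -2.14, -1.16, -2.22, -2.64, -1.15 and -1.41 in the same order of groups, Kat8 was -0.21, and 21.5% of all genes above the filter were lower and 0.844% higher, against 13.3% and 3.27% after the lowess correction and 11.5% and 4.88% as deposited. The Adamts median was -0.72 at percentile 75, where 2 genes are left, -1.19 with the mean of probe sets and -1.24 without Adamts5, and the Timp median was -1.75 without Timp3. Ptprc, a macrophage marker, was 0.17 without probe sets of suffix _s_at, _x_at or _a_at, where another probe set is read. Probe sets near the floor limit what can be seen for 32 of the 65 members.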
